A study of Mus musculus with 21 samples.

Results

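Whether an immune challenge before birth changes how adult microglia answer a bacterial stimulus was asked with a 4-group design, and the quantity examined here is the difference between 2 responses: the change after lipopolysaccharide (LPS) in offspring of immune-activated dams minus the change after LPS in offspring of control dams. The libraries were chosen by their titles and batch label, and 19 of the 21 in the series entered. They were 3 of MIA offspring after LPS, 5 of MIA offspring after saline, 5 of control offspring after LPS and 6 of control offspring after saline, all of batch 1. MIA stands for maternal immune activation, and control offspring are labelled CON. The labels name neither the agent given to the dams nor the strain or litter of any mouse. All mice were male and 8 to 10 weeks old. LPS was injected into the peritoneum at 4500 endotoxin units per gram of body weight, and microglia were taken 18 hours after LPS or saline. The cells were sorted from dissociated striatum as live P2RY12-positive cells with CD11b and low CD45 on their surface, and their RNA was amplified in bulk by a Smart-Seq2 protocol primed on poly(A) tails. The library titled excluded by the submitters (MIA saline replicate 6) and the only library of batch 2 (MIA LPS replicate 4) took no part in the comparison.

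Microglia are the resident macrophages of the brain. LPS, a component of the outer membrane of Gram-negative bacteria, is handed to Toll-like receptor 4 by CD14 and MD-2, and the receptor signals through MyD88 to NF-kB and through TRIF to interferon regulatory factors. NF-kB drives cytokine and chemokine genes together with its own inhibitors, and type I interferon made downstream raises a separate set of interferon-stimulated genes. Macrophages that meet a stimulus more than once can answer the later one with a smaller response, called tolerance, or a larger one, called priming or training. An injection into the peritoneum reaches microglia largely through circulating and vascular signals, so the response measured in sorted cells at 18 hours is not a direct in vitro stimulation.

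The response to LPS was of nearly the same size in both maternal groups, and no gene was called for a difference between them. Of 15141 genes tested, 0 (0%) passed a Benjamini-Hochberg adjusted p under 0.05 for the response difference by edgeR's quasi-likelihood test, and the smallest adjusted p was 1.00. An unadjusted p under 0.05 was reached by 508 genes (3.36%), 248 with a positive and 260 with a negative difference. DESeq2 and limma-voom with sample weights also called 0 genes, with 573 and 392 at an unadjusted p under 0.05. The LPS response itself was broad. In MIA offspring 5779 genes (38.2%) were called, 2919 higher and 2860 lower, and in control offspring 6585 genes (43.5%), 3279 higher and 3306 lower. These 2 responses share no library. The genes called in both numbered 4892, which is 84.7% of the MIA calls and 74.3% of the control calls, and all 4892 changed in the same direction. Between MIA and control offspring compared directly, 0 genes were called after LPS (848 at an unadjusted p under 0.05) and 0 after saline (428), with 0 and 7 by DESeq2 and 0 and 0 by limma-voom with sample weights.

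**Figure D1:**
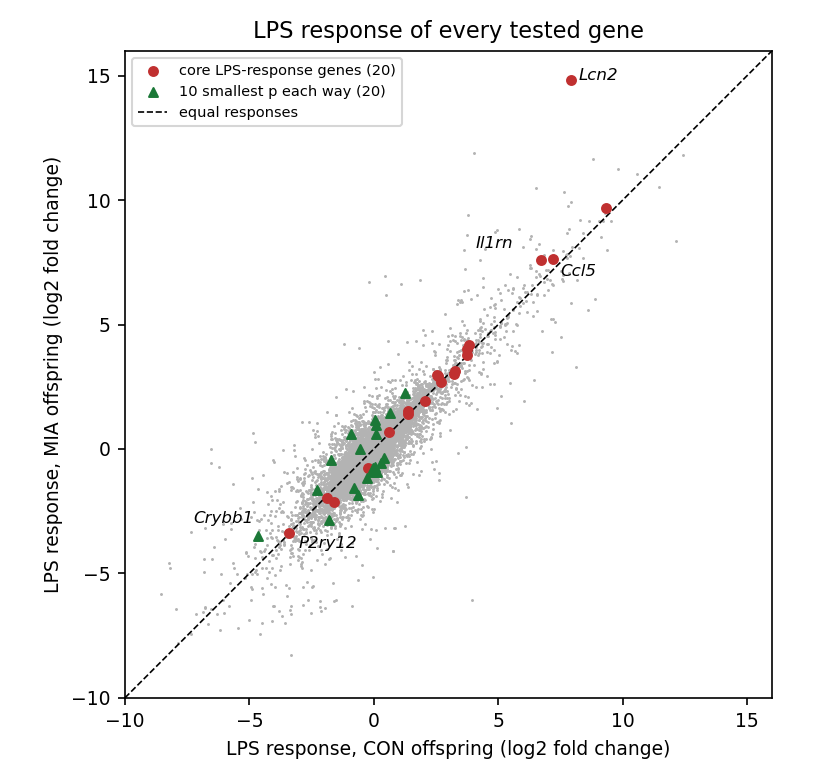
Log2 fold change after LPS in MIA offspring (vertical axis) against that in control offspring (horizontal axis), 1 grey point per tested gene, with the 20 core LPS-response genes as red circles, the 10 genes of smallest p for the difference in each direction as green triangles, and a dashed diagonal of equal responses. Points lie around the diagonal in both directions of change, and Lcn2, with 0 counts in all 5 MIA saline libraries, lies far above it.

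The calls rest on libraries of 13.0 to 17.1 M counts (M, units of 1e+06 counts) in MIA LPS, 10.2 to 15.7 M in MIA saline, 9.85 to 18.1 M in control LPS and 11.9 to 19.0 M in control saline, and a ribosomal RNA gene took 43.0 to 53.8% of the counts. The sorted cells carried the RNA of their gate. Itgam, which encodes CD11b, had a mean log2 CPM (TMM-scaled counts per 1e+06 counts) of 8.27 over the 19 libraries, Ptprc, which encodes CD45, 8.15 and Csf1r, a receptor microglia need to survive, 10.88. Of 12 lymphocyte markers none passed the filter on low counts, and Cd3e, Nkg7 and Gzma were among those at 0 in all 19 libraries. MIA LPS replicate 2 stood apart from the other libraries. It had 7.3% of its counts in mitochondrial genes, the highest share of the series (others 2.57 to 6.11%). On the second principal component, which held 6.89% of the variance, it lay at -85.0 and the other 18 libraries lay between -18.4 and 32.2. Its summed astrocyte markers reached 241.5 CPM and its summed oligodendrocyte markers 94.5 CPM, above the 111.9 to 147.7 and 31.0 to 54.2 CPM of the LPS-treated control libraries. The other MIA LPS libraries had 118.6 and 121.4 CPM of the astrocyte list and 39.1 and 50.1 CPM of the oligodendrocyte list. After saline the astrocyte list spanned 163.2 to 287.9 CPM in MIA and 158.2 to 312.4 CPM in control libraries, ranges that hold 241.5 CPM. The oligodendrocyte list spanned 41.0 to 85.1 and 41.5 to 58.1 CPM after saline, below the 94.5 CPM of MIA LPS replicate 2. The median within-group SD of log2 CPM was 0.42 in MIA LPS, or 0.24 without this library, 0.28 in MIA saline, 0.33 in control LPS and 0.33 in control saline libraries. With 3 libraries in the group, several differences below moved when this library was left out, and values without it are given beside them. Leaving out other libraries also moved differences, some of them the opposite way. The second number of the mouse ID takes 3 values among the 8 MIA libraries and 6 among the 11 control libraries, and its meaning is not stated. Nothing in the labels shows that the mice came from separate litters, so the p-values cover the variation among these libraries, which may include shared litters.

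The size of the response was compared over the 8339 genes that changed with LPS when the response was averaged over both maternal groups. That average weighted the MIA response by 0.407 and the control response by 0.593, so that the choice of genes favoured neither group if libraries vary alike. Each difference was given the sign of the averaged change, so that a negative value is a smaller response in MIA offspring. The 4084 raised genes had a median response of 0.85 in MIA and 0.80 in control offspring (log2), with a median gene-wise difference of 0.05. The 4255 lowered genes had a median fall of 0.95 in MIA and 0.89 in control offspring, again with a median difference of 0.05. Over all 8339 genes the response was smaller in MIA offspring for 3597 and larger for 4742, and the quartiles of the difference were -0.15 and 0.26. The median SE (standard error) of one gene's difference was 0.31, so a shift of this size lies below what single genes can show.

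The direction of this small shift depended on how the genes were chosen. Over the 5779 genes called in MIA offspring, whatever their call in control offspring, the median difference was 0.13, and over the 6585 called in control offspring it was -0.01, where in each case the genes had been chosen on the values of that group. Genes called in MIA but not in control offspring numbered 887, of which 850 had the same sign in control offspring and 127 a difference at an unadjusted p under 0.05. Genes called in control but not in MIA offspring numbered 1693. Of these, 1602 moved the same way in MIA offspring. Over all 1693 the median response in the direction of the control change was 0.44 in MIA and 0.76 in control offspring, and for 122 the response difference had an unadjusted p under 0.05. Over all tested genes 508 of 15141 (3.36%) had such a p. A call in 1 group and none in the other itself favours genes with a larger difference. The 127 and 122 genes therefore cannot be read against that share. Most genes called in 1 group only did not reach such a p, so their number is not a count of genes with different responses.

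Stronger responders also had median differences near 0, with less precision for single genes. The 1642 genes raised at least 2-fold had a median difference of 0.07 and the 1972 lowered at least 2-fold also 0.07. Among the 351 genes raised at least 8-fold the median response was 4.66 in MIA and 4.39 in control offspring, and the median of the gene-wise differences was 0.09. The 234 genes lowered at least 8-fold had medians of 3.94 in MIA and 3.79 in control offspring and a median difference of 0.13. At 8-fold the median SE of a difference was 0.96 for raised and 0.98 for lowered genes. The quartiles of the signed difference were -0.41 and 0.84 for raised and -0.77 and 0.97 for lowered genes. An unadjusted p under 0.05 in the edgeR fit was reached by 7.69% and 13.7% of them, beside 3.36% of all tested genes. Protein-coding genes had median differences of 0.05 (3667 raised) and 0.04 (3319 lowered), and long noncoding RNAs 0.01 (166 raised) and 0.11 (457 lowered).

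Per library, the size of the response was taken as the median over the raised, or the lowered, genes of log2 CPM minus the mean of the saline libraries of the same maternal group. The 3 MIA LPS libraries stood at 0.89, 0.78 and 0.97 for raised genes, and the 5 control LPS libraries at 0.83, 0.82, 0.85, 0.87 and 0.82. For lowered genes they stood at -0.80, -0.94 and -0.97 in MIA offspring and at -0.80, -0.80, -0.83, -0.86 and -0.82 in control offspring. The groups overlapped in both directions, with the MIA libraries spread on either side of the control range for raised genes. MIA LPS replicate 2 had the weakest rise of all 8 libraries, and replicate 3 had the strongest rise and, with replicate 2, the deepest fall. The saline libraries lay between -0.07 and 0.06 for raised genes.

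The same measure over gene lists overlapped between the maternal groups too. Cytokines and chemokines stood at 2.48, 2.09 and 3.01 in the MIA LPS libraries and at 2.40, 2.26, 2.77, 2.65 and 2.04 in the control LPS libraries. Interferon-stimulated genes stood at 2.91, 2.84 and 2.03 in MIA and at 2.23, 2.94, 2.35, 2.09 and 2.49 in control offspring. Homeostatic genes stood at -1.44, -2.25 and -1.88 in MIA and at -1.50, -1.72, -1.54, -1.85 and -1.61 in control offspring. MIA LPS replicate 2 had the deepest fall of the homeostatic list and the lowest antimicrobial value, 3.72 beside 4.33 and 5.19 in the other MIA LPS libraries and 4.03 to 5.46 in control LPS libraries.

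**Figure D2:**
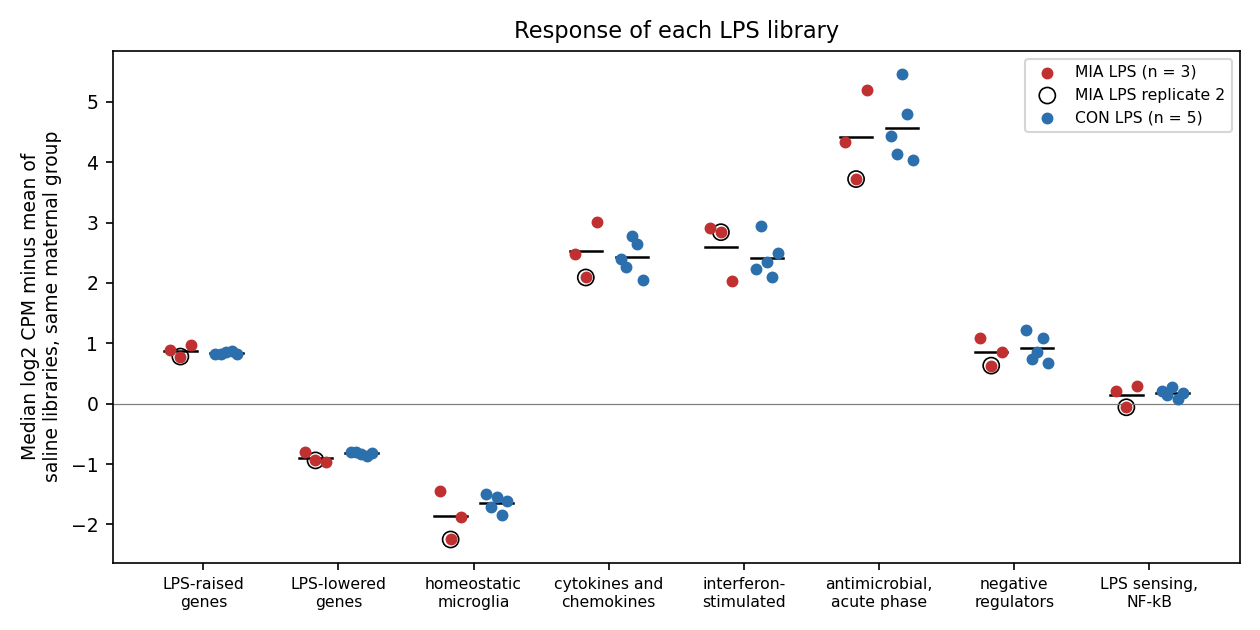
Response of each LPS library (median log2 CPM minus the mean of the saline libraries of the same maternal group) over LPS-raised genes, LPS-lowered genes and 6 gene lists, with MIA libraries left of control libraries, bars at group means and MIA LPS replicate 2 ringed. The 3 MIA LPS libraries, at 0.78 to 0.97 for raised genes, enclose the 5 control LPS libraries at 0.82 to 0.87, and the groups overlap in every column.

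Abundance set how much a difference could show. Among the 1500 genes with a mean log2 CPM of 6 and above the median SE of the response difference was 0.21, and the 95% interval of the difference lay within a doubling or halving (log2 of 1 either way) for 95% of them. At 4 to 6 this held for 92.0% of 3841 genes (median SE 0.23) and at 2 to 4 for 59.5% of 4456 genes (median SE 0.33). At 0 to 2 it held for 3.08% of 3340 genes (median SE 0.63), and below 0 for 0.349% of 2004 genes (median SE 1.09). For the 2 lowest bins a difference of 2-fold in the response was thus mostly not detectable with these libraries. The share of genes at an unadjusted p under 0.05 was 1.53% at 6 and above, 2.71% at 4 to 6, 3.41% at 2 to 4, 4.25% at 0 to 2 and 4.34% below 0, so it was lowest where the estimates were most precise.

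Along the abundance bins the median signed difference stayed close to 0. For raised genes it was -0.18 below 0, where 148 of 263 genes responded less in MIA offspring, 0.01 at 0 to 2, 0.05 at 2 to 4, 0.06 at 4 to 6 and 0.05 at 6 and above. For lowered genes it was 0.08, 0.06, 0.07, 0.04 and 0.03 over the same bins. The negative median of the rarest raised genes sat beside a median SE of 1.16 for a single gene, and 11 of the 263 reached an unadjusted p under 0.05, 6 of them with a smaller and 5 with a larger response in MIA offspring. Of all 8339 LPS-responsive genes, 74.7% had a lower 95% bound above -1, so that a response 2-fold weaker in MIA offspring lay outside their interval. That margin exceeds the median control response of these genes, 0.85, so for many of them even a lost response lay within it. Among genes changed at least 2-fold the share was 56.9% of the raised and 53.6% of the lowered. Among those changed at least 8-fold it was 33.3% and 35.5%.

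**Figure D3:**
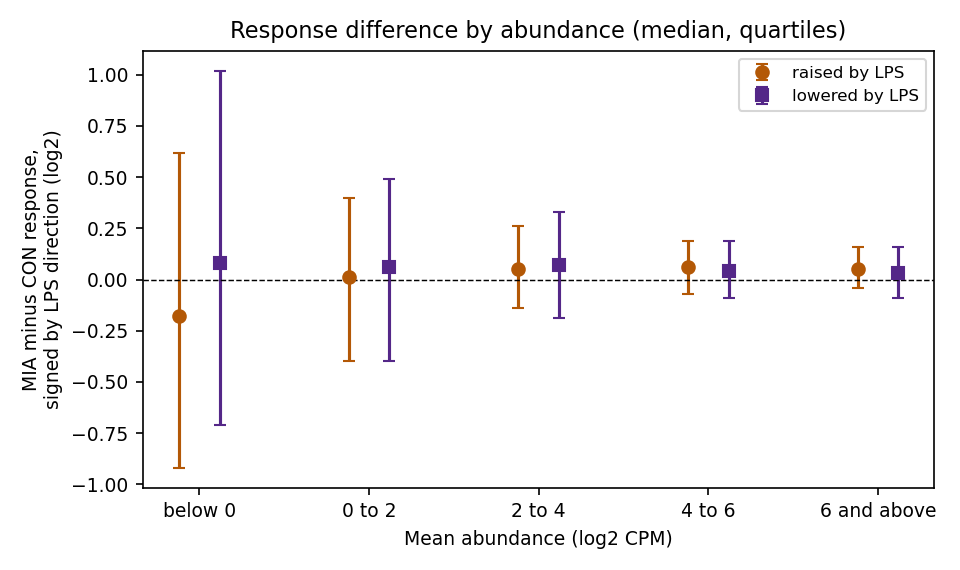
Signed response difference (MIA minus control, log2, negative for a smaller response in MIA) of LPS-raised and LPS-lowered genes by bins of mean log2 CPM, with the median as the marker and the quartiles as bars. Medians run from -0.18 to 0.08 across the bins, and the quartiles narrow from -0.92 and 0.62 in the rarest raised genes to -0.04 and 0.16 in the most abundant.

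Genes of LPS sensing come first in the order of the pathway. For the lists and single genes below, a difference is the MIA minus the control log2 response without a change of sign, so that a negative value is a deeper fall or a weaker rise in MIA offspring. Of 27 such genes, 9 rose and 4 fell in MIA offspring (19.3% and 18.9% of all genes did), and 11 rose and 5 fell in control offspring (21.7% and 21.8% of all genes). The median response difference of the list was 0.00, beside 0.01 over all tested genes, and 24 of the 27 intervals lay within 1 log2 unit. Cd14, the coreceptor that loads LPS, was at 1436.2, 891.9 and 1375.4 CPM in the MIA LPS libraries, against 134.5 to 210.5 CPM after saline. In control offspring it was at 897.9 to 1121.1 CPM after LPS, against 122.6 to 226.7 CPM after saline (median 165.9). Its log2 response was 2.92 ± 0.19 (SE) in MIA and 2.56 ± 0.16 in control offspring, and the difference of 0.36 ± 0.25 was not called (edgeR adjusted p = 1.00) and was 0.56 without MIA LPS replicate 2.

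Tlr4, the LPS receptor, had the smallest p of the sensing list. It stood at 76.5, 44.8 and 67.6 CPM in the MIA LPS libraries and at 115.6, 91.8, 115.3, 110.4 and 108.4 CPM in the MIA saline libraries. Control LPS libraries had 90.6, 110.8, 87.8, 87.8 and 85.2 CPM, and control saline libraries 82.5 to 144.0 CPM with a median of 106.4. All 3 MIA LPS libraries lay below all 5 control LPS libraries and below every saline library. Tlr4 fell in MIA offspring (-0.78 ± 0.17, edgeR adjusted p = 0.000590) and was not called in control offspring (-0.22 ± 0.14, edgeR adjusted p = 0.206), but the difference itself, -0.56 ± 0.22, was not called (unadjusted p = 0.0148 in the edgeR fit across all genes, adjusted p = 1.00). Without MIA LPS replicate 2 it was -0.36. Tlr2, a receptor for bacterial lipoproteins that LPS induces, had a log2 response of 3.02 ± 0.29 in MIA and 3.22 ± 0.26 in control offspring, and Tlr7, a sensor of single-stranded RNA, 0.98 ± 0.19 and 0.74 ± 0.16 in the same order. The differences of these receptors, -0.20 ± 0.38 and 0.24 ± 0.24, were 0.16 and 0.04 without that replicate.

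Inhibitors of the pathway are the genes through which tolerance is usually described. Of 23 measured negative regulators, 14 rose in MIA and 16 in control offspring, beside 19.3% and 21.7% of all tested genes, and none fell in either. The median response was 0.86 in MIA and 0.96 in control offspring, with a median gene-wise difference of 0.04. Irak3, an inactive kinase that restrains Toll-like receptor signalling, was at 13.0, 13.3 and 25.7 CPM after LPS in MIA offspring, against 1.33 to 3.42 CPM after saline. In control offspring it was at 15.8, 19.4, 27.0, 24.1 and 18.5 CPM after LPS, against 1.47 to 2.87 CPM after saline. The LPS values of the maternal groups overlapped, and its difference was -0.11 ± 0.40, or 0.06 without MIA LPS replicate 2. Tnfaip3, which encodes the ubiquitin-editing protein A20, rose by 1.42 ± 0.18 in MIA and 1.36 ± 0.15 in control offspring, Nfkbia, the NF-kB inhibitor IkB-alpha, by 0.69 ± 0.25 and 0.60 ± 0.21, and Socs3, an inhibitor of cytokine receptor signalling, by 1.54 ± 0.20 and 1.38 ± 0.17, MIA first. Dusp1, a phosphatase of MAP kinases, rose by 0.86 ± 0.24 in MIA and 0.97 ± 0.20 in control offspring. The differences of these 4 genes and of Irak3 ran from -0.11 to 0.16, and from -0.09 to 0.31 without MIA LPS replicate 2. Tnip3, a binding partner of A20 with a mean log2 CPM of -0.62, had the smallest p of the list (difference -2.99 ± 1.39, unadjusted p = 0.0408 in the edgeR fit, adjusted p = 1.00).

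Cytokine and chemokine genes rose in both maternal groups. Of 30 measured, 24 rose and 3 fell in MIA offspring, and 23 rose and 4 fell in control offspring. Over all tested genes 19.3% rose and 18.9% fell in MIA, and 21.7% and 21.8% in control offspring. The median log2 response was 2.82 in MIA and 2.65 in control offspring, the median difference was 0.24, and the difference was positive for 21 genes and negative for 9, with a median SE of 0.59. Tnf, the cytokine that amplifies NF-kB signalling, was at 727.8, 399.9 and 718.0 CPM in the MIA LPS libraries and at 33.9, 50.9, 27.2, 46.1 and 33.3 CPM in MIA saline. In control LPS libraries it was at 757.0, 415.9, 420.1, 501.5 and 342.5 CPM, and in control saline at 22.5 to 61.4 CPM with a median of 35.5. LPS and saline libraries did not overlap in either maternal group, and the MIA LPS values fell within the range of the control LPS values. The response was 4.01 ± 0.31 in MIA and 3.74 ± 0.27 in control offspring, a difference of 0.27 ± 0.39 with a 95% interval of -0.55 to 1.09. It was 0.52 without MIA LPS replicate 2 and 0.06 without control saline replicate 5.

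Il1b, the precursor of interleukin 1 beta, showed how much 1 library weighed. It was at 390.6, 73.1 and 332.0 CPM in the MIA LPS libraries, where replicate 2 was the low one, and at 313.1, 135.3, 360.9, 263.6 and 127.1 CPM in the control LPS libraries. Its response difference was 0.35 ± 0.65, and it was 0.81 without MIA LPS replicate 2 but -0.03 without MIA LPS replicate 1. Il6 was at 53.9, 21.0 and 59.9 CPM in MIA LPS and at 39.5, 36.3, 42.9, 43.0 and 19.6 CPM in control LPS libraries. The Il6 difference was 0.45 ± 0.41, and it was 0.81 without MIA LPS replicate 2 and 0.20 without MIA LPS replicate 3. Neither value was called at any setting tried (smallest edgeR adjusted p over all settings 0.995 for Il1b and 0.961 for Il6).

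Ccl5, a T cell chemokine, rose by 7.64 ± 0.55 in MIA and 7.20 ± 0.47 in control offspring, Ccl3 by 2.68 ± 0.30 and 2.69 ± 0.26, Ccl2, which draws monocytes, by 1.94 ± 0.46 and 2.04 ± 0.40, and Cxcl10, an interferon-induced chemokine, by 3.76 ± 0.31 and 3.74 ± 0.27, MIA first in each pair. Their differences were 0.44 ± 0.77, -0.01 ± 0.39, -0.10 ± 0.61 and 0.02 ± 0.41, or 0.27, 0.04, 0.28 and -0.02 without MIA LPS replicate 2. Il1rn, which encodes the antagonist of the interleukin 1 receptor, rose by 7.59 ± 0.67 in MIA and 6.70 ± 0.58 in control offspring, a difference of 0.88 ± 1.08 that was 0.31 without that replicate. An unadjusted p under 0.05 for the difference was reached by 3 of the 30 genes, beside 3.36% of all tested genes. They were Ccl9 (1.54 ± 0.50, described below), Cxcl9, an interferon gamma-induced chemokine (-3.03 ± 1.19), and Lif, a cytokine of the interleukin 6 family (3.57 ± 1.67). Cxcl9 and Lif had a mean log2 CPM of 0.21 and -0.24, and none of the 3 was called.

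Interferon-stimulated genes rose as a near-complete set. Of 35 measured, 34 rose in MIA offspring and 32 in control offspring, beside 19.3% and 21.7% of all tested genes, and 0 fell in either. The median log2 response was 2.59 in MIA and 2.37 in control offspring. The median difference was 0.02, with 18 positive and 17 negative differences. An unadjusted p under 0.05 for the difference was reached by 0 of the 35, beside 3.36% of all tested genes. Irgm1, an interferon-induced GTPase, rose by 2.36 ± 0.25 in MIA and 1.97 ± 0.21 in control offspring, a difference of 0.39 ± 0.33 that was 0.01 without MIA LPS replicate 2.

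Promoters were examined for the DNA elements that the 2 arms of the pathway use. An interferon-stimulated response element was searched as GAAA, any 2 bases and GAAA, and an NF-kB element as GGGA, any base and TTTCC. Both were searched on both strands, counting overlapping matches, in the 250 bases before the start of 32851 RefSeq mouse promoters (GRCm38.p6). Of the tested genes, 10028 had such a promoter. The interferon element was found in 2.98% and the NF-kB element in 0.356% of the 32851 promoters. The sequences shown, 100 bases each, are those of the most abundant interferon-stimulated genes and of the most abundant cytokine genes with a match, a choice made after the values were seen. They are written 5′ to 3′ on the strand of the gene and credited to RefSeq. Capitals mark the matched element, in Irgm1 a pair of overlapping matches, and in Gbp7 and Csf1 the match is on the opposite strand.
Irgm1 promoter, chr11:48871421-48871520, minus strand: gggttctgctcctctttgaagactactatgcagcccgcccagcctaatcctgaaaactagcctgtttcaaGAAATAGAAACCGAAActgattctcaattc
Gbp7 promoter, chr3:142530236-142530335, plus strand: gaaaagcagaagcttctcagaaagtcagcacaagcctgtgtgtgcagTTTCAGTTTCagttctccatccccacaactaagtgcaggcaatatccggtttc
Cxcl2 promoter, chr5:90903757-90903856, plus strand: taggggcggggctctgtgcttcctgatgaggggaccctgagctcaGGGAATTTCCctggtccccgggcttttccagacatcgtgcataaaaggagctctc
Csf1 promoter, chr3:107760569-107760668, minus strand: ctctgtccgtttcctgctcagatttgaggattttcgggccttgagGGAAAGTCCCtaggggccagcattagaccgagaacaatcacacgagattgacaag

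Genes with either element had a median response difference at or near 0. The 328 tested genes with the interferon element included 107 that rose in MIA (32.6%) and 122 that rose in control offspring (37.2%), beside 22% and 24.6% of all tested genes with a promoter. Their median response was 0.21 in both groups, with a median difference of 0.00. The 48 tested genes with the NF-kB element had median responses of -0.14 in MIA and -0.06 in control offspring and a median difference of -0.02, and 10 of them rose in MIA and 12 in control offspring. Gbp7, a guanylate-binding GTPase of cell-autonomous defence, rose by 1.64 ± 0.13 in MIA and 1.73 ± 0.11 in control offspring. The neutrophil chemokine gene Cxcl2 rose by 5.40 ± 0.41 and 5.40 ± 0.36, and Csf1, a growth factor of microglia, by 1.34 ± 0.23 and 1.14 ± 0.19, MIA first. A match describes the letters of the window and is not a measured binding site.

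Genes that mark homeostatic microglia fell in both maternal groups. Of 26, 24 fell in MIA and 25 in control offspring, beside 18.9% and 21.8% of all tested genes, and 0 rose in either. The median response was -1.84 in MIA and -1.63 in control offspring, with a median difference of 0.05. P2ry12, the purinergic receptor of the sort gate, was at 219.9, 272.4 and 120.9 CPM in MIA LPS libraries, against 1828.7 to 2347.7 CPM in MIA saline. In control offspring it was at 182.3, 187.2, 170.8, 190.8 and 214.0 CPM after LPS, against 1741.1 to 2343.8 CPM after saline with a median of 1989.5. The MIA LPS libraries lay on both sides of the control LPS range. P2ry12 changed by -3.36 ± 0.21 in MIA and -3.42 ± 0.17 in control offspring (log2 fold change ± SE), a difference of 0.06 ± 0.24 with an interval of -0.43 to 0.54, which was -0.19 without MIA LPS replicate 2. Since these are bulk samples of sorted cells, fewer cells of a type and less RNA per cell cannot be told apart.

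Cx3cr1, the fractalkine receptor gene, was another case of 1 library. It was at 1302.8, 237.2 and 1102.7 CPM in MIA LPS libraries and at 1440.7, 874.9, 1892.3, 1135.9 and 844.8 CPM in control LPS libraries. Its difference was -0.54 ± 0.44, and it was -0.08 without MIA LPS replicate 2 but -0.93 without MIA LPS replicate 1. Tmem119, a surface marker of microglia, was at 254.2, 63.5 and 162.9 CPM in MIA LPS and at 141.5 to 259.2 CPM in control LPS libraries. The Tmem119 difference of -0.09 ± 0.36 became 0.31 without MIA LPS replicate 2 and -0.58 without MIA LPS replicate 1. Differences over the 26 homeostatic genes ran from -0.70 to 1.19, with 15 positive and 11 negative. An unadjusted p under 0.05 in the edgeR fit was reached by 3 of the 26, beside 3.36% of all tested genes. None was called. Fcrls, an Fc receptor-like gene of microglia, had a difference of 0.50 ± 0.22, which was not called, and Crybb1 is described with the smallest p values below.

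**Figure D4:**
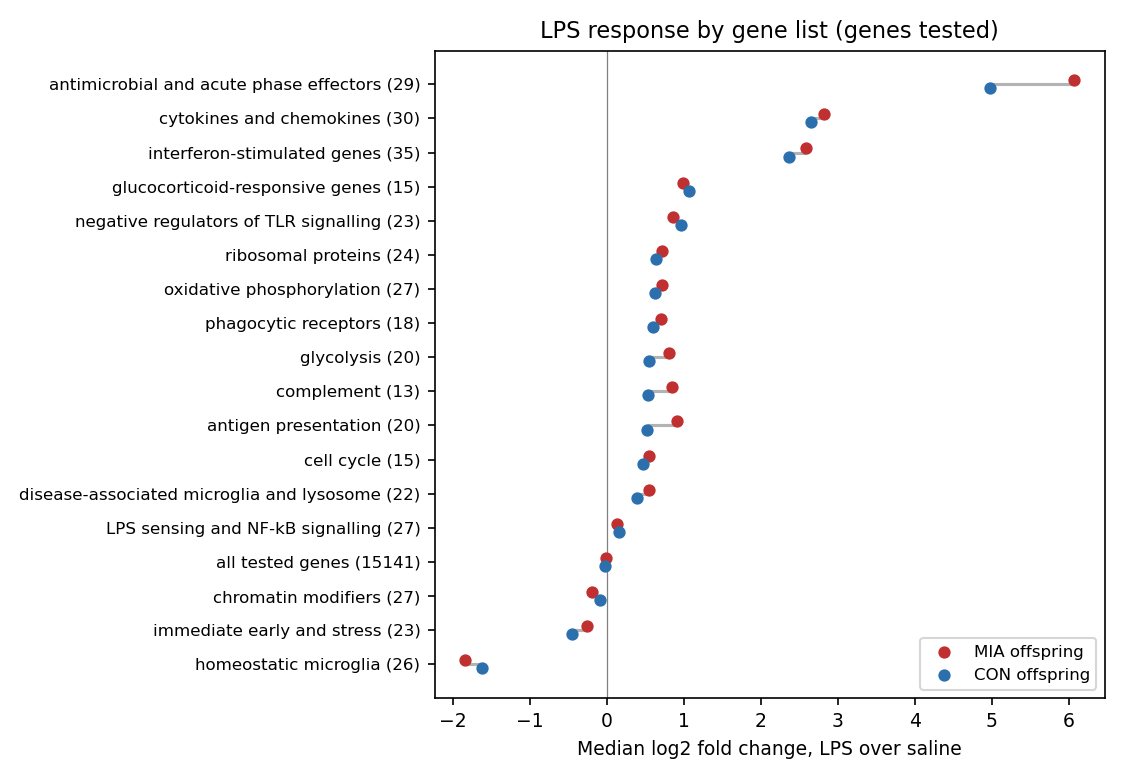
Median log2 fold change, LPS over saline, of the measured genes of 17 lists and of all tested genes, with MIA offspring above control offspring in each pair and the number of genes in brackets. The widest gap is that of the antimicrobial and acute phase list, at 6.07 in MIA and 4.97 in control offspring, and 0 members of any list were called for the difference.

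In the remaining lists 0 members were called for the difference. The counts of called members below stand beside 19.3% higher and 18.9% lower in MIA and 21.7% higher and 21.8% lower in control offspring over all tested genes. Oxidative phosphorylation genes rose in 21 of 27 cases in both maternal groups (median difference 0.06), ribosomal protein genes in 19 of 24 in MIA and 21 of 24 in control offspring (0.06), and glycolysis genes in 12 and 11 of 20 (0.15). In antigen presentation 14 of 20 rose in MIA and 12 in control offspring (0.10), and in the list of disease-associated microglia and lysosome genes 12 and 11 of 22 (0.15). Complement had 7 and 8 of 13 genes higher (-0.11, or 0.22 without MIA LPS replicate 2), and phagocytic receptors 9 and 10 of 18 (0.02). Pfkfb3, which makes the activator of glycolytic phosphofructokinase, rose by 3.47 ± 0.17 in MIA and 3.29 ± 0.15 in control offspring. C1qb, a chain of complement C1q, rose by 0.74 ± 0.18 and 0.53 ± 0.15, the MHC class I light chain gene B2m by 0.84 ± 0.16 and 0.95 ± 0.14, and the cathepsin D gene Ctsd fell, with log2 fold changes of -1.09 ± 0.17 and -1.33 ± 0.14, MIA first. Glucocorticoid-responsive genes rose in 9 of 15 cases in both groups (median difference 0.17), immediate early and stress genes in 3 of 23 in MIA and 4 in control offspring with 6 and 9 lower (0.01), cell cycle genes in 5 and 4 of 15 (0.11), and chromatin modifiers in 3 and 2 of 27 with 7 and 8 lower (0.02). Without MIA LPS replicate 2 the median difference was 0.35 for glycolysis, 0.33 for antigen presentation, 0.22 for immediate early and stress genes, 0.13 for ribosomal proteins, 0.10 for phagocytic receptors and -0.03 for chromatin modifiers. Kmt2a, a histone methyltransferase gene, fell in both groups, with -1.02 ± 0.15 in MIA and -0.57 ± 0.12 in control offspring. Its difference of -0.45 ± 0.19 had an unadjusted p of 0.0259 in the edgeR fit and was not called, and it was -0.24 without MIA LPS replicate 2.

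Antimicrobial and acute phase genes held the largest fitted difference of the 17 lists, that of Lcn2, and it came from the saline libraries. Of 29 measured, 26 rose and 1 fell in each maternal group, with medians of 6.07 in MIA and 4.97 in control offspring and a median difference of 0.18, or 0.46 without MIA LPS replicate 2. Lcn2, an acute phase protein that withholds bacterial iron carriers, was at 278.3, 61.9 and 442.0 CPM in MIA LPS and at 269.3, 172.7, 416.5, 381.1 and 179.4 CPM in control LPS libraries, which overlapped. It had 0 counts in 5 of 5 MIA saline libraries and 102 counts spread over 6 of 6 control saline libraries, at 0.117 to 2.87 CPM. Against a floor of 3 counts over the MIA saline group (0.0451 CPM) Lcn2 was at least 5778.4-fold higher after LPS in MIA offspring, and it was 242.6-fold higher in control offspring. The fitted difference of 6.92 ± 2.57 (unadjusted p = 0.0201 in the edgeR fit, adjusted p = 1.00) depends on how 0 counts are treated and is no bound, and it was 4.04 when the excluded MIA saline library was added.

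Some genes known from neutrophils and other blood leukocytes also had 0 counts in MIA saline alone, and others did not. S100a9, a subunit of calprotectin, had 0 counts in the 5 MIA saline libraries and 187 counts in 3 of 6 control saline libraries, replicates 2, 3 and 5, while after LPS its mean was 33.7 CPM in MIA and 34.3 CPM in control offspring. Chil3, a chitinase-like gene of monocytes and neutrophils, had 0 counts in MIA saline and 36 in 3 control saline libraries, and Ltf, which encodes lactoferrin, 0 and 61. Camp, which encodes cathelicidin, had 0 and 73 counts. Ngp, a neutrophil granule gene, had 10 counts in 3 of 5 MIA saline and 111 in 5 of 6 control saline libraries, and S100a8, the partner of S100a9, 3 counts in 1 and 138 in 3. The macrophage scavenger receptor gene Marco had 0 counts after saline in both maternal groups, and averaged 31.9 CPM in MIA and 49.2 CPM in control offspring after LPS. After LPS, Chil3 averaged 6.01 CPM in MIA and 5.73 CPM in control offspring. Of 9 measured neutrophil markers 4 had an unadjusted p under 0.05 for the response difference, beside 3.36% of all tested genes, and 0 were called. The summed neutrophil list, most of it Csf3r after saline, spanned 88.1 to 176.4 CPM in MIA LPS, 171.3 to 213.9 in MIA saline, 123.9 to 176.7 in control LPS and 164.2 to 210.1 CPM in control saline libraries. The summed monocyte list spanned 37.4 to 55.5 CPM in MIA LPS and 3.15 to 6.79 in MIA saline, against 42.9 to 78.9 and 4.01 to 5.98 CPM in control offspring, and 6 of 7 members rose in each maternal group. Of the other cell types, 0 of 10 measured neuron, 1 of 9 astrocyte and 1 of 7 border-associated macrophage markers rose in each maternal group. Of 7 oligodendrocyte, 8 endothelial and 4 erythroid markers 0 rose in either. Border-associated macrophage markers fell in 2 cases in MIA and 1 in control offspring, oligodendrocyte markers in 0 and 1, and erythroid markers in 0 and 3. In each group 1 astrocyte, 1 endothelial and 0 neuron markers fell. Over all tested genes 19.3% rose and 18.9% fell in MIA, and 21.7% and 21.8% in control offspring. The median difference of the 4 erythroid markers was 2.74, with a median SE of 3.08. After saline the summed erythroid and choroid plexus list, which holds hemoglobin genes, spanned 0.197 to 4.39 CPM in MIA and 0.105 to 34.7 CPM in control libraries. The part of these cells in the response of the lists above was not tested.

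**Figure D5:**
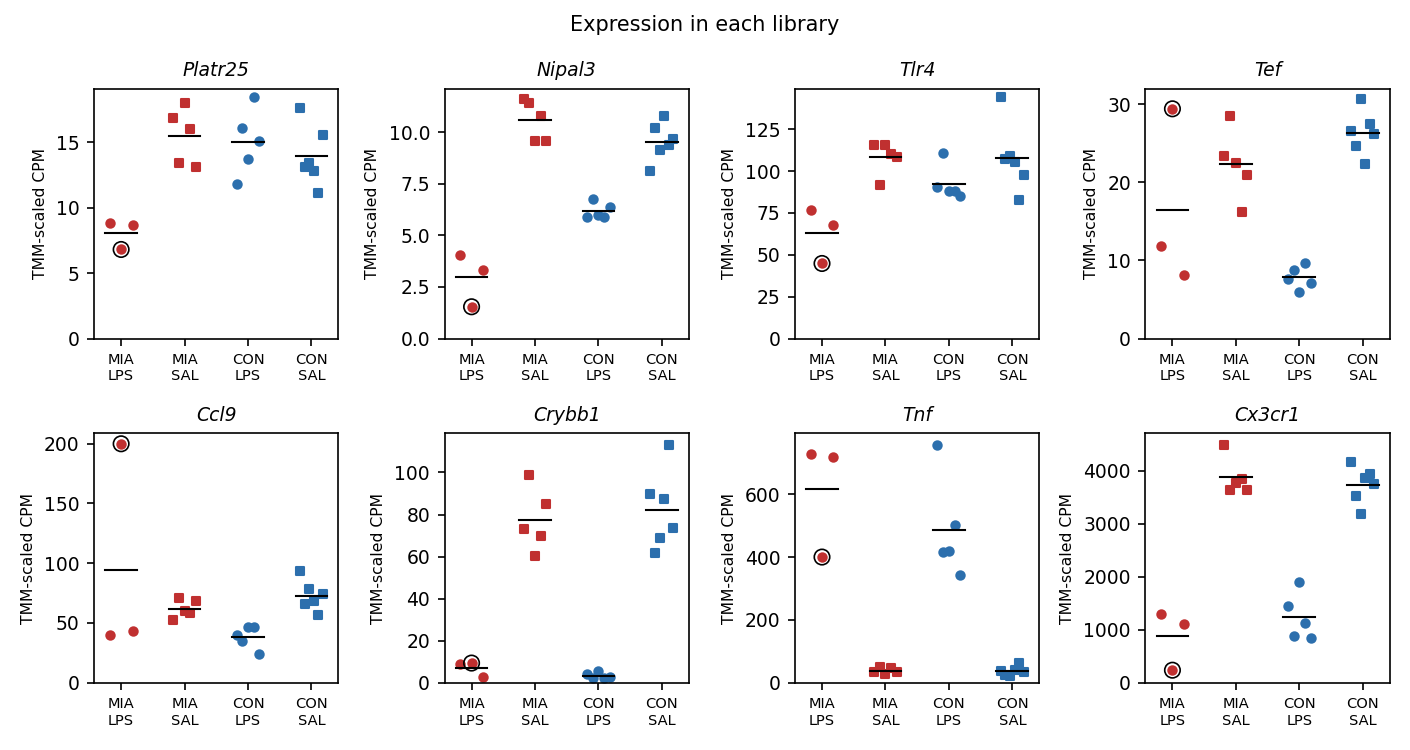
TMM-scaled CPM in every library of the 4 groups (MIA LPS, MIA saline, control LPS, control saline, left to right) for 8 genes, with group means as bars and MIA LPS replicate 2 ringed. For Platr25, Nipal3 and Tlr4 all 3 MIA LPS libraries lie below all control LPS libraries, for Ccl9 the ringed library alone is high at 199.9 CPM, and for Tnf the LPS groups overlap.

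The 10 negative differences of smallest p, among genes of a mean log2 CPM of 3 or more, were not called. Platr25, annotated as protein coding in GENCODE, was at 8.80, 6.81 and 8.71 CPM in MIA LPS libraries and at 16.9, 13.4, 18.0, 16.0 and 13.1 CPM in MIA saline. It was at 11.8, 16.1, 13.7, 18.5 and 15.1 CPM in control LPS and at 11.1 to 17.6 CPM in control saline libraries. All 3 MIA LPS libraries lay below all 16 other libraries. It fell in MIA offspring (-0.93 ± 0.19) and was not called in control offspring (0.11 ± 0.15), and the difference was -1.04 ± 0.24 (unadjusted p = 0.000229 in the edgeR fit, adjusted p = 1.00).

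Nipal3, a magnesium transporter family gene, was at 4.06, 1.54 and 3.30 CPM in MIA LPS libraries and at 9.57 to 11.6 CPM in MIA saline. In control offspring it was at 5.88, 6.75, 5.99, 5.88 and 6.38 CPM after LPS, against 8.14 to 10.8 CPM after saline. It fell in both groups, with -1.84 ± 0.24 in MIA and -0.63 ± 0.18 in control offspring, and the difference was -1.21 ± 0.29. The others with negative differences were Synj2bp, an outer mitochondrial membrane protein gene (-0.77 ± 0.20), the small GTPase gene Rab39 (-0.79 ± 0.20), Sipa1l3 (-0.83 ± 0.25), Cklf, a chemokine-like factor gene (-0.73 ± 0.22), Tbc1d31 (-1.06 ± 0.33), Cep164, a gene of the ciliary base (-0.87 ± 0.28), the RNA-binding protein gene Nova1 (-0.90 ± 0.29) and Ttll5 (-0.80 ± 0.27). For these 10 genes the difference without MIA LPS replicate 2 stayed negative and ran from -0.92 for Platr25 to -0.50 for Cklf.

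Some positive differences rested on that library. Tef, a transcription factor gene of the circadian clock, was at 11.8, 29.4 and 8.18 CPM in MIA LPS libraries and 16.2 to 28.5 CPM in MIA saline, against 5.99 to 9.69 CPM in control LPS and 22.3 to 30.7 CPM in control saline. The difference was 1.30 ± 0.34 (unadjusted p = 0.000924 in the edgeR fit, adjusted p = 1.00), and 0.59 without replicate 2. Ccl9, a chemokine gene, was at 40.3, 199.9 and 42.9 CPM in MIA LPS and at 23.7 to 47.0 CPM in control LPS libraries, where only replicate 2 was high, and its difference of 1.54 ± 0.50 was 0.37 without it. Fzd5, a Wnt receptor gene, was at 8.46, 31.0 and 9.30 CPM in MIA LPS libraries, and its difference of 1.12 ± 0.39 was 0.26 without replicate 2. The part of whatever set that library apart was not tested.

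Other positive differences were shared by more libraries. Crybb1, a crystallin gene expressed by homeostatic microglia, was at 8.71, 9.37 and 2.90 CPM in MIA LPS libraries and at 4.01, 2.13, 5.36, 2.14 and 2.87 CPM in control LPS libraries, against 60.2 to 98.8 CPM in MIA saline and 61.6 to 113.1 CPM in control saline. Its fall was -3.48 ± 0.34 in MIA and -4.67 ± 0.29 in control offspring, a difference of 1.19 ± 0.40 that was 0.92 without replicate 2. Tmem251 was at 20.6, 27.0 and 19.1 CPM in MIA LPS and 14.1 to 18.6 CPM in control LPS libraries, with 6.93 to 11.1 CPM in MIA saline and 9.20 to 13.3 CPM in control saline. It rose by 1.45 ± 0.18 in MIA and 0.66 ± 0.15 in control offspring, a difference of 0.79 ± 0.24. Tubb6, a beta-tubulin gene, differed by 1.00 ± 0.35, Pex5, the receptor that imports proteins into peroxisomes, by 0.85 ± 0.28, Narf by 0.64 ± 0.22, Ubn1, a subunit of a histone chaperone, by 0.55 ± 0.19 and Adh5, a formaldehyde-clearing dehydrogenase gene, by 0.53 ± 0.18. Without replicate 2 the differences were 0.64 for Tmem251, 1.11 for Tubb6, 1.00 for Pex5, 0.65 for Narf, 0.40 for Ubn1 and 0.60 for Adh5. Part of these differences lay in the saline libraries. MIA minus control (log2) was 0.30 after LPS and -0.55 after saline for Pex5, 0.28 and -0.25 for Adh5, and 0.40 and -0.39 for Tmem251. For Tubb6, Narf and Ubn1 it was 0.79, 0.49 and 0.49 after LPS and -0.21, -0.15 and -0.06 after saline. The unadjusted p of these 10 genes ran from 0.000924 to 0.00895 in the edgeR fit, and every adjusted p was 1.00.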

How the data were processed

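RNA of sorted striatal microglia was measured by sequencing in 21 libraries, of which 19 of batch 1 were compared. The deposited table gives raw estimated counts for 55487 genes under versioned Ensembl identifiers. The submitters' processing notes name STAR, RSEM and DESeq2 with no version, and the sources used here give no build, annotation or strand setting. Values that were not whole (6.27%) were rounded with the rest. Empty lines of the file, which name no gene, held 0 counts. Symbols came from GENCODE M21, which matched 55141 identifiers without their version. The protocol uses no molecular identifiers, so floors (3 counts) cover counting error only. Genes with close copies or antisense partners are uncertain.

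Genes were tested by quasi-likelihood in edgeR 4.0.16 (limma 3.58.1, R 4.3.3) with TMM scaling, a robust fit, 1 mean per group in 1 fit of 19 libraries, 15 residual degrees of freedom, and edgeR's expression filter (at least 10 counts in enough libraries, 15 in total), which kept 15141 genes holding 99.9% of the counts. Genes were called at 0.05 after Benjamini-Hochberg adjustment over all of them. The SE was obtained by dividing a log2 fold change, unsigned, by the root of its F statistic, and intervals are at 95%. Library responses used a prior count of 2. DESeq2 1.42.0 and limma-voom were alternatives, with other scalings, filters, left-out libraries and blocks.

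Named genes were 20 core LPS-response genes, the 10 smallest p in each direction at a mean log2 CPM of at least 3 without Gm-numbered, Rik and pseudogene names, and per list the 2 most abundant members and the smallest p. Itgam, Ptprc, Csf1r, the members of a list with an unadjusted p under 0.05, the leukocyte genes with 0 saline counts and the promoter examples were chosen after their values were seen. The comparison, its groups and the gene lists were chosen with earlier results of these data known. Some genes chosen in these ways are not reported here.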

Additional observations from a re-analysis of the deposited data

Results flagged for a closer look

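Groups of 5 or 6 libraries were examined for a single distant library. The values were those of named genes in MIA saline, control LPS and control saline, and the response measures in control LPS. Of 128 such groups 8 held one, and chance gives about 1 in 20. The MIA LPS group, with 3 libraries, was not examined in this way. Il6 was at 19.6 CPM in control LPS replicate 5, below the 36.3 to 43 CPM of the other control LPS libraries. Tlr4 was at 110.8 CPM in control LPS replicate 2, above the 85.2 to 90.6 CPM of the others in its group. After saline, Cx3cr1 was at 4494.1 CPM in MIA replicate 1 (others 3629.2 to 3842.7) and Tmem251 at 11.1 CPM in MIA replicate 4 (others 6.93 to 7.94). Acod1, which makes itaconate, was at 0.632 CPM in MIA saline replicate 1 and 0 in the other MIA saline libraries, and at 0.718 CPM in control saline replicate 3 (others 0 to 0.117). Ccl5 was at 2.23 CPM in control saline replicate 5 (others 0.41 to 1.08), and Cklf at 19.7 CPM in control saline replicate 1 (others 23.1 to 25.1). The batch 2 library, MIA LPS replicate 4, was in no comparison. Its median response was 0.86 over raised genes and -1.91 over lowered genes, the latter beside -0.80 to -0.97 in the other MIA LPS libraries. It had counts for 12264 genes, beside 16819 to 19559 in the other libraries of the series. The part of this lower detection in its values was not tested.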

How the results depend on the processing

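The response difference stayed at 0 called genes under RLE and upper quartile scaling, no filter or a filter of 1 CPM, DESeq2, limma-voom with sample weights, with the library titled excluded or the batch 2 library kept, and without ribosomal RNA and mitochondrial genes, the last chosen after seeing the data. Leaving out single libraries gave 0 to 2 called genes: 2 (Lpar5 and Gm15801) without MIA LPS replicate 1 and 1 (Gm12191) without control saline replicate 4. MIA against control after LPS gave 0 to 4, with 4 without MIA LPS replicate 1 and 3 without replicate 3, and after saline 0, or 7 by DESeq2. LPS calls ran from 4799 to 5878 in MIA and from 5988 to 7132 in control offspring over left-out libraries, and over all settings up to 6089 (DESeq2) in MIA and from 5063 to 7318 (limma-voom) in control offspring. With the batch 2 library kept without a batch term, MIA calls (5797) outnumbered control calls (5063). The median signed difference ran from 0.01 to 0.09 over left-out libraries and was 0.17 with the batch 2 library kept without a batch term, 0.13 over genes chosen in MIA and -0.01 over genes chosen in control offspring. List medians of the difference changed sign too: complement to 0.22 without MIA LPS replicate 2, homeostatic genes to -0.14 without replicate 1, and antimicrobial genes to -0.11 without replicate 3. The cause of these shifts was not tested.

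With the replicate number as a block, 0, 5575 and 6352 genes were called for the difference, MIA and control responses, and the median signed difference was 0.07. Same-numbered libraries of different groups had a median correlation of deviations of 0.06 (-0.23 to 0.36, 24 pairs, 11 over 0.1), and libraries of other numbers -0.01 (109 pairs, 24 over 0.1). Not every same-numbered pair was over 0.1, but real pairing need not give that, so these values cannot decide whether the numbers pair the samples. The main fit used no block. Libraries of different groups with the same second ID number had a median correlation of 0.06 (0.00 to 0.29, 10 pairs, 3 over 0.1). Those with other ID numbers in the same maternal group had -0.01 (35 pairs, 6 over 0.1). With the second ID number as a block, 0, 5676 and 5775 genes were called for the difference, MIA and control responses, and the median signed difference was 0.04. Direct MIA against control comparisons were not run under that block, since no ID number is shared by both maternal groups.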

Other observations

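The libraries outside the comparison gave these values. MIA saline replicate 6, titled excluded, had 5.29 M counts, a median of 0.04 over LPS-raised genes and -0.02 over LPS-lowered genes against the other MIA saline libraries, and a summed erythroid and choroid plexus list of 26.3 CPM. MIA LPS replicate 4 of batch 2 had 91.4 CPM of the monocyte list and 301.4 CPM of the neutrophil list, above the 37.4 to 55.5 and 88.1 to 176.4 CPM of the batch 1 MIA LPS libraries. Its homeostatic list stood at -2.50 and its cytokine list at 1.46, beyond the batch 1 MIA LPS libraries at -2.25 to -1.44 and 2.09 to 3.01. Batch and the variation of a single library cannot be told apart for it, since batch 2 held this library alone.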
